A study of Mus musculus with 14 samples.

Results

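The loci of Myc and Mycn were described across 11 lists of regions enriched in chromatin immunoprecipitation (ChIP-seq, which sequences the DNA that an antibody recovers together with its target protein or histone mark). The members were all listed regions that shared at least 1 bp with a window of 80 kb on chromosome 15 (61780001 to 61860000) for Myc or of 70 kb on chromosome 12 (12910001 to 12980000) for Mycn, in mouse build mm9. The rule uses positions and no score. The windows held 21 regions of 201448 in the 11 lists, with 12 at Myc and 9 at Mycn.

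Of the 14 libraries, 8 came from mouse medulloblastoma cells with genotype p53-/-;p18-/- and 6 from neurospheres, which are floating cultures of neural cells, labelled with the same genotype. Per the labels, the tumour cells over-expressed Myc, had taken up retroviral vectors and were sorted for red and green fluorescence. They carried Cas9 (the control) or were Ezh2 knockout with genotype p53-/-;p18-/-;Ezh2-/-, and both were profiled for H3K27me3, H3K27ac and H3K4me3. In neurospheres a Cas9 antibody was used on cells labelled U6, Suz12F1 and Suz12F2, and a Gfi1 antibody on cells labelled Cas9 and Suz12F2. The labels do not explain U6, F1 or F2, do not state the number of clones or animals, and do not say whether the neurospheres carried an introduced Myc. Every group was 1 library, so replicate errors and tests across samples could not be given, and differences between lists are differences between single libraries. Read depth is unknown. A longer list may come from a deeper or cleaner library.

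Myc and Mycn encode related transcription factors that bind DNA together with Max and drive growth and division. Myc is amplified or over-expressed in Group 3 medulloblastoma, and Mycn is active in granule neuron precursors of the cerebellum, where Sonic hedgehog signalling sustains it. Ezh2 is the catalytic subunit of Polycomb repressive complex 2, which places H3K27me3 on silent developmental genes. H3K4me3 marks promoters and H3K27ac marks active promoters and enhancers, and Gfi1 is a zinc finger repressor. A cDNA introduced by a vector holds the exons of a gene without its introns, so its reads align to the exons of the gene's own locus.

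Of the 2 genes, 1 matched the table of promoters, Mycn. Its start region is shown beside the H3K27me3 and Gfi1 antibody islands of the Mycn window. The sequence is from RefSeq in build GRCm38.p6 at chr12:12941837-12942086 on the minus strand, 5′ to 3′, and holds the 250 bases before the start. These positions cannot be set against the mm9 positions of the lists. Capitals mark matches to TTTGGCGC, a form of the site bound by E2F factors.

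Mycn: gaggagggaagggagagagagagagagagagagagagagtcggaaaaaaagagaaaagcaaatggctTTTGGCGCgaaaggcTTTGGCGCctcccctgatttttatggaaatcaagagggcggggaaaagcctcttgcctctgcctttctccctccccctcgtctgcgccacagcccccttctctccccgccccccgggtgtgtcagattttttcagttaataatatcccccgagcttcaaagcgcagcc

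Both strands were searched, and TTTGGCGC matched 2 times, each on the printed strand, beginning 183 and 168 bases before the start. Of 32851 promoter windows of this length, 137 or 0.417% held at least 1 match, and 2, Mycn among them, held at least 2 matches. The letters AATC, the core of the Gfi1 site, matched 3 times over both strands. At least 1 match stood in 69.0% of the promoters and at least as many in 17.7%, so this short core is common. The Myc and Max motif CACGTG, found in 6.02% of promoters, had 0 matches in these letters. The stretch was 54.8% G and C with 11 CG dinucleotides, against medians of 52.4% and 6 over all promoters. As many CG dinucleotides stood in 35.6% of promoters. A match describes the letters and is not a measured binding site.

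At Myc, 1 H3K27me3 island of 8.80 kb in Cas9 tumour cells contained every tumour peak of the window. It ran on chromosome 15 from 61814801 to 61823600. The authors' score, which grows with island length and whose meaning the files do not state, was 259. It was the 657th highest score of 14107 islands. Divided by length the score was 29.4 per kb, and 1.92% of the list reached that value. Islands are runs of enriched windows joined across short gaps. No other H3K27me3 island lay within 500 kb on either side in Cas9 cells. The next on the chromosome lay 1721 kb beyond the window.

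In the Ezh2 knockout the list held 2 short islands within this stretch. They covered 61819001 to 61819800 and 61820801 to 61821600, each 800 bp long, with 1000 bp between them. Together they covered 18.2% of the Cas9 island. Among 705 Cas9 islands of 5 to 20 kb that overlapped any knockout island, the median cover was 37.5%, and 84.4% were covered as much as the one at Myc or more. By the rule of 1 bp overlap the island counts as kept, although 88.1% of Cas9 islands had no knockout island and 65.8% of knockout islands had no Cas9 island. Over the genome the H3K27me3 lists covered 71.4 Mb and 18.6 Mb, in this order.

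The knockout islands at Myc were short for their scores. The first had a score of 48 and the second 37, beside a list median of 39. Among the 23 knockout islands of exactly 800 bp the median score was 20, and 48 was the highest of them. Of these 23, 3 scored 37 or more. Per kb the 2 scores at Myc came to 60 and 46.3, which ranked 5th and 9th of 5312 islands, against a list median of 13.2. The lowest score of the list was 16, so every island of 800 bp exceeds that median per kb. Of the list 99.7% was as long or longer, so the comparison at equal length is the one to read. The 4 islands with higher values than the first, named after their values were seen, began at 53953401 on chromosome 11, 110183401 on chromosome 9, 84483601 on chromosome X and 125949201 on chromosome 8. Of these, the one on chromosome 8 alone also overlapped an H3K4me3 peak of the knockout.

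**Figure D1:**
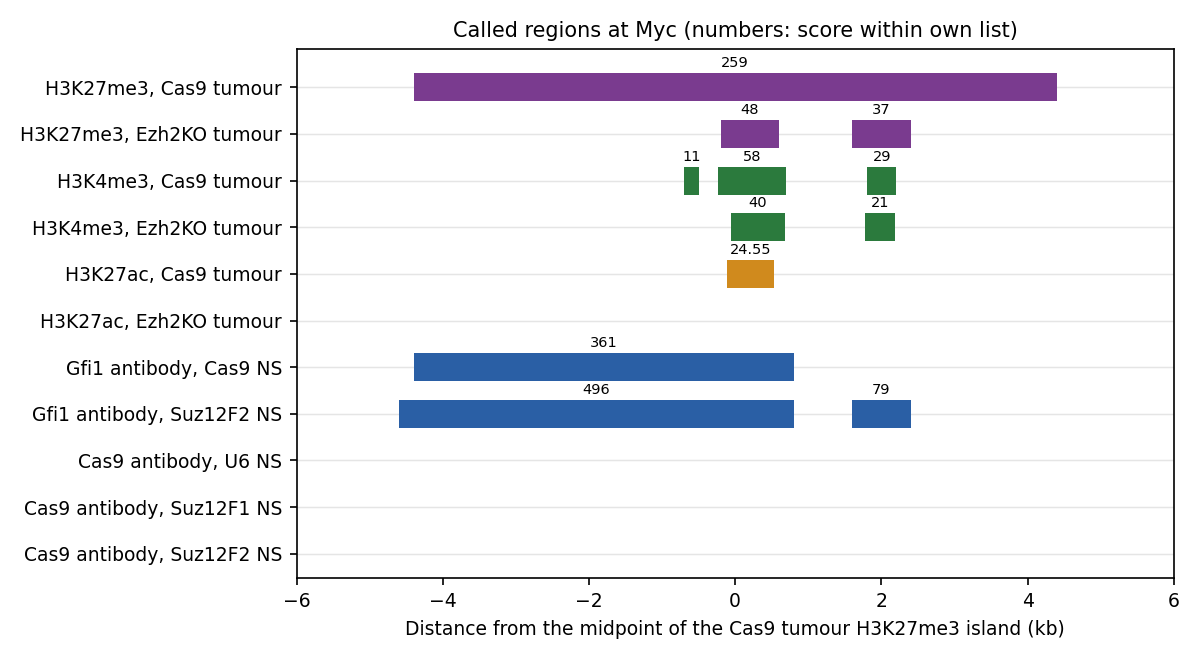
Regions of the 11 lists at Myc, drawn to scale as distance in kb from the midpoint of the Cas9 tumour H3K27me3 island; each row is 1 list, NS means neurospheres, and the number above a bar is its score, comparable within that list alone. The 2 short knockout H3K27me3 islands stand over the 2 H3K4me3 peaks of the knockout, and the second has the same ends as a Gfi1 antibody island of Suz12F2 cells.

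H3K4me3 was called at the same 2 places in both kinds of tumour cell. The stronger peak ran from 61818962 to 61819897 in Cas9 cells, 936 bp long, with a score of 58 that 4.85% of the list reached. In the knockout it ran from 61819144 to 61819882, 739 bp long, with a score of 40 that 10.1% of that list reached. The right edges of the 2 calls lay closer together than the left ones. The weaker peak ran from 61821007 to 61821406 in Cas9 cells, with a score of 29, and from 61820977 to 61821388 in the knockout, with a score of 21. These scores lay near the list medians of 26 and 22. The space between the peaks was 1109 bp in Cas9 cells and 1094 bp in the knockout.

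A further H3K4me3 peak was called in Cas9 cells alone, from 61818503 to 61818703. It was 201 bp long with a score of 11, where the lowest score in the list was 7. Of all Cas9 H3K4me3 peaks 14.6% had no partner in the knockout, but of the 1462 that scored 11 or less 60.1% (Wilson 95% interval 57.6 to 62.6, for counting error only) had none. Peaks of such low scores thus lacked a partner more often than the list did. None of the 2 knockout peaks in the window was new, where 9.84% of knockout peaks had no Cas9 partner. At Myc, H3K4me3 covered 1537 bp in Cas9 cells and 1151 bp in the knockout.

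H3K27ac, the active mark, was called at Myc in Cas9 cells and not in the knockout. The peak ran from 61819094 to 61819725, 632 bp long, wholly inside the stronger H3K4me3 peak. Its score was 24.55, beside a list median of 19.97 and a lowest score of 9.15. For its length the score was low. Per kb it was 38.8, which 79.9% of the list reached, and the 7 peaks of 632 bp had a median score of 32.46. The knockout list, whose lowest score was 8.53, held 0 peaks in the window. Of Cas9 H3K27ac peaks 8.62% had no knockout partner. Among the 2754 peaks that scored as high as the one at Myc or higher, 2 had none: the peak at Myc and one seen afterwards on chromosome 10 from 79727793 to 79728131. The cut was the score of the Myc peak itself, so this peak is among the 2 by construction. The one on chromosome 10 scored 25.38. The count therefore does not measure how unusual the Myc peak is. With 1 library of each kind this is a difference between 2 lists, and a library-to-library spread cannot be given.

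Calls of marks that seldom overlap in these lists overlapped at Myc. Overlapping calls do not show both marks on the same DNA, and marks on any introduced copy cannot be told apart here. In Cas9 cells 1.61% of H3K27ac peaks overlapped an H3K27me3 island, and 0.808% of H3K27me3 islands overlapped an H3K27ac peak. H3K4me3 peaks were met by 10.8% of Cas9 H3K27me3 islands, and 40 islands (0.284%) held 3 or more as the one at Myc did. In the knockout 4.41% of H3K27me3 islands overlapped an H3K4me3 peak, as both islands at Myc did, and 2.05% of H3K4me3 peaks overlapped an H3K27me3 island. Among those 234 knockout islands the 2 at Myc ranked 2nd and 3rd by score per kb, where the median was 14.5. Any island of 800 bp exceeds this median, since the lowest score of the list was 16. A Cas9 island with at least 2 knockout islands, each on a knockout H3K4me3 peak, was found at 2 places: at Myc and, seen afterwards, on chromosome 12 from 113377801 to 113385200. A Cas9 island with H3K4me3 in both kinds of cell and H3K27me3 in the knockout was found at 153 places, of which 14 had H3K27ac in Cas9 cells. The island at Myc was 1 of these 14 and the single one of them with no H3K27ac in the knockout. The conditions counted here are those of the Myc island itself. Of the 128 Cas9 H3K27ac peaks on a Cas9 H3K27me3 island 10 had no knockout partner, beside 8.62% of the whole list. These 2 shares count single peaks of any score, while the 14 are islands. They therefore do not show whether the lack of H3K27ac at Myc is unusual, which was not tested.

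**Figure D2:**
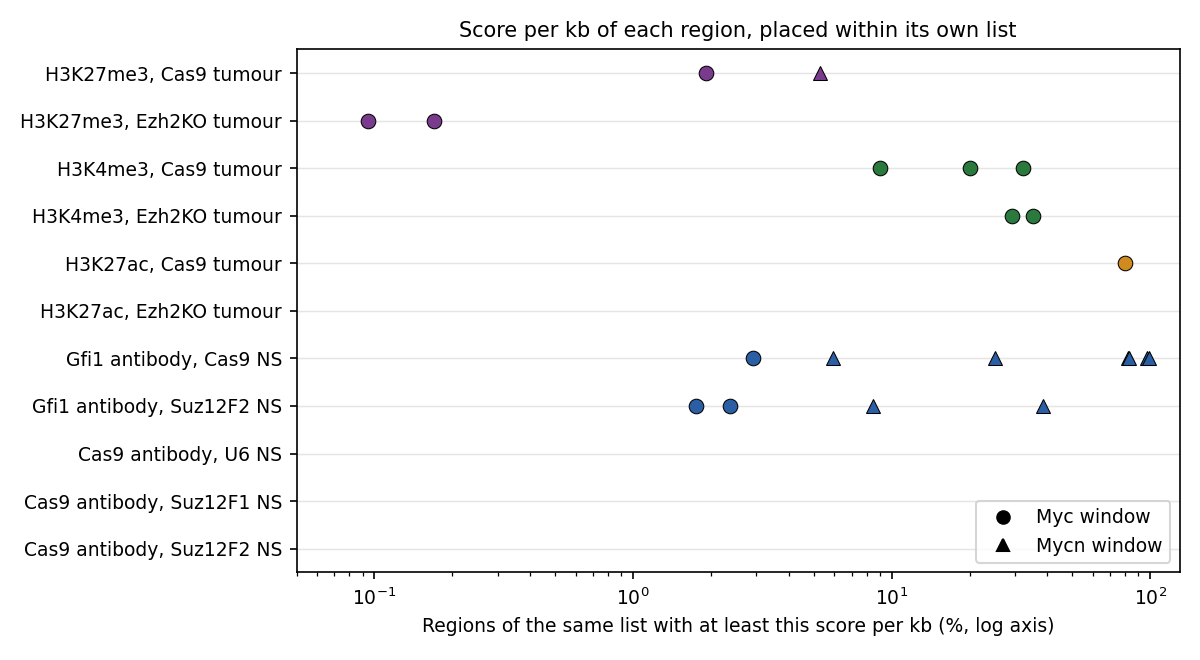
Score per kb of each of the 21 regions, placed within its own list; the x axis (log) is the percent of that list with at least this score per kb, circles are Myc and triangles Mycn, and rows without a symbol held no region. The 2 knockout H3K27me3 islands at Myc stand farthest left, at 0.0941% and 0.169% of their list. Short islands stand high by this measure, and 99.7% of that list was as long as these or longer.

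Gfi1 antibody islands in neurospheres covered the left part of the same stretch. In Cas9 neurospheres 1 island ran from 61814801 to 61820000, and its first base was also that of the tumour H3K27me3 island. Of tumour H3K27me3 islands, 4.15% shared their start with an island of this list. In Suz12F2 neurospheres an island ran from 61814601 to 61820000. The scores were 361 and 496, beside list medians of 150 and 99. By score per kb 2.92% and 2.36% of these lists were as high. The Suz12F2 list held a further island from 61820801 to 61821600, with a score of 79, which the Cas9 list did not have. Of Suz12F2 islands 18.6% had no Cas9 partner. This island had exactly the ends of the second knockout H3K27me3 island in the tumour cells, an identity that 17 of 5312 knockout islands (0.320%) had with the Suz12F2 list. That share is over all lengths, and 99.7% of the knockout list was as long or longer. The Suz12F2 list held 1843 islands of 800 bp. The share among islands of this length was not computed. The Cas9 antibody lists held 0 islands in the Myc window, and the nearest, of Suz12F2 cells, lay 9.40 kb beyond it.

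The 2 intervals marked by the knockout islands were also covered in other lists. The interval from 61819001 to 61819800 was overlapped by 6 of the other 10 lists, and that from 61820801 to 61821600 by 4. Of all knockout H3K27me3 islands 2.15% were overlapped by as many as 6 other lists and 7.78% by as many as 4, with a median of 2. The counts include the Cas9 H3K27me3 list, made with the same antibody, and the long Gfi1 lists, which reached 84.1% and 88.0% of tiles of 80 kb. H3K4me3 peaks of Cas9 cells covered 100% of the first interval and 50.0% of the second. Those of the knockout covered 82.1% and 51.5%. Per the labels the tumour cells over-expressed Myc, and how it was brought to do so is not stated there. Exon positions of Myc in mm9 were not used here. Whether reads from an introduced copy contributed to the calls in these intervals was not tested. The lists hold no reads, and the input libraries were not analysed here. Marks on an introduced copy and marks on the gene's own locus cannot be told apart in these lists.

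At Mycn, Cas9 tumour cells had 1 H3K27me3 island, the knockout had 0, and neither had an H3K4me3 or H3K27ac peak. The island ran on chromosome 12 from 12944201 to 12951000, a length of 6.80 kb. Its score of 169 was the 1359th highest of the list, and its 24.9 per kb was reached by 5.29% of the list. Islands like this one, with no knockout island and no H3K4me3 or H3K27ac peak in either kind of cell, made up 76.0% (75.3 to 76.7) of Cas9 H3K27me3 islands. In this respect Mycn followed most of the list, while the island at Myc did not. In the knockout the nearest H3K27me3 island lay 703 kb from the window.

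Gfi1 antibody islands at Mycn lay almost on the tumour H3K27me3 island. The highest-scoring ones ran from 12943401 to 12950400 in Cas9 neurospheres, with a score of 430, and from 12943601 to 12950400 in Suz12F2 neurospheres, with a score of 437. Each covered 91.2% of the H3K27me3 island. The length shared with the H3K27me3 island was 0.816 of the joint length for Cas9 neurospheres and 0.838 for Suz12F2, against medians of 0.357 and 0.394 over all overlapped H3K27me3 islands. At Myc these values were 0.591 and 0.578. Overlap itself was common, with 79.8% of Cas9 H3K27me3 islands meeting a Gfi1 island of Cas9 neurospheres and 75.4% one of Suz12F2. The marks come from different cells, tumour and neurosphere.

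The Cas9 neurosphere list had 5 more Gfi1 islands in the Mycn window and the Suz12F2 list had 1 more. The one called in both ran from 12909401 to 12913400 (score 189) in Cas9 and to 12913800 (score 168) in Suz12F2 cells, and it crossed the window's edge. The other 4 of the Cas9 list began at 12915601, 12926401, 12936001 and 12967801 and scored 122, 101, 138 and 137, all below the list median of 150. They had no Suz12F2 partner, where 23.9% of the Cas9 list had none. Per kb the 4 were in the lower part of the list, with 81.7% to 98.9% of islands as high. Gfi1 islands covered 26.8 kb of the window in Cas9 and 10.6 kb in Suz12F2 neurospheres, where the whole lists covered 367.9 and 294.0 Mb. In the upper 50% of scores the covers were 10400 and 10600 bp, so that this difference rests on islands of low score. Of tiles of 70 kb, 25.9% and 37.5% held as much as the whole lists did here. At Myc the covers were 5.20 and 6.20 kb, which 58.9% and 48.9% of tiles of 80 kb reached.

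**Figure D3:**
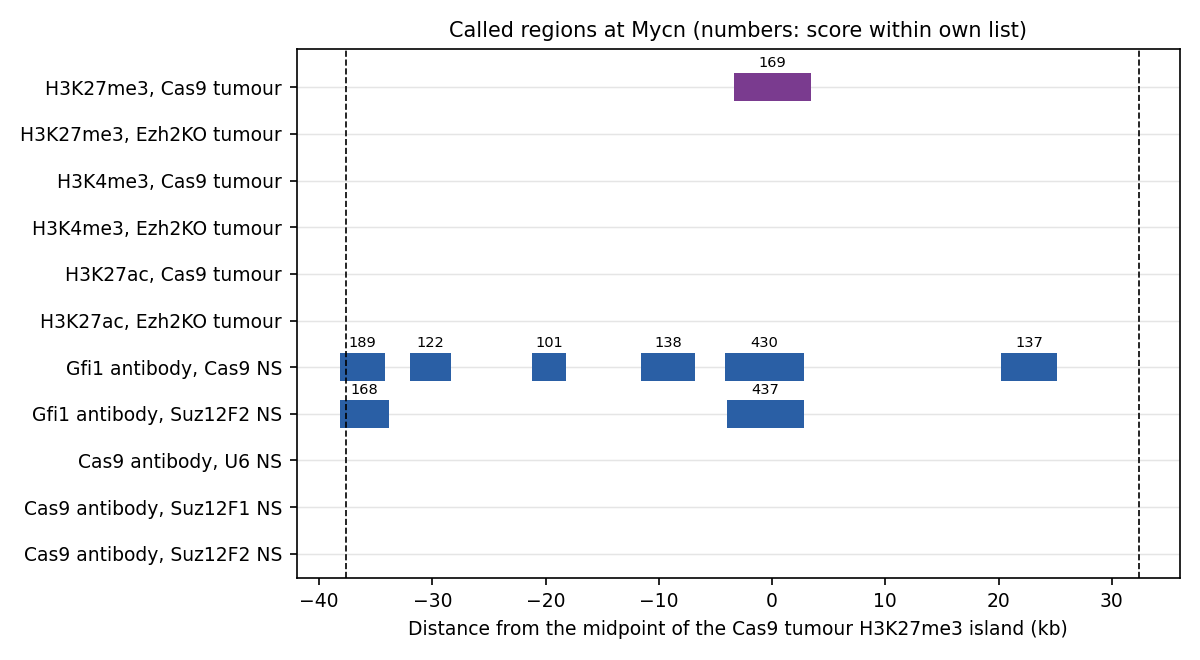
Regions of the 11 lists at Mycn, drawn to scale as distance in kb from the midpoint of the Cas9 tumour H3K27me3 island; dashed lines are the window's edges, and the number above a bar is its score within its own list. The tumour H3K27me3 island (score 169) lies under the Gfi1 antibody islands with scores of 430 and 437, and the H3K4me3 and H3K27ac rows hold no region.

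The surroundings differed between the loci. Beyond the Myc window, the nearest active marks lay from 61869262 to 61870170 (H3K4me3, score 24) and from 61869298 to 61869895 (H3K27ac, score 13.73) in Cas9 cells. In the knockout H3K4me3 was called there as 2 peaks, from 61869457 to 61869818 and from 61869912 to 61870329, with scores of 13 and 9. H3K27ac was called in the knockout from 61869269 to 61870113, with a score of 16.25. Unlike the peak at Myc, H3K27ac here was thus listed in both kinds of cell. A Gfi1 antibody island of each list and the Cas9 antibody island of Suz12F2 cells from 61869401 to 61870800 also lay there. In the RefSeq gene order Pvt1, a long noncoding RNA gene, is the next gene after Myc, and whether these marks belong to it cannot be read from the lists.

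Around Mycn the active marks were farther away. The nearest H3K4me3 peak lay 275.5 kb beyond the window, from 13255512 to 13255986 in Cas9 cells (score 33) and from 13255549 to 13255978 in the knockout (score 31). H3K27ac was called there in both, with scores of 27.88 and 31.68. The second place, with H3K4me3 from 13275907 to 13276505 in Cas9 cells, held both marks in both kinds of cell. These 2 places held the 8 active peaks of the flanks, and every one had a partner in the other kind of cell. Over the lists, 28.1% of knockout H3K27ac peaks had none, and the shares for the other 3 lists are given above. The next coding gene after Mycn in the RefSeq order is Ddx1, which lies beside Mycn and is often amplified with it in neuroblastoma. An H3K27me3 island from 13126001 to 13128200 (score 29, beside a list median of 54) was called in Cas9 cells alone, as were 88.1% of the list. Gfi1 antibody islands in the flanks numbered 26 in Cas9 and 29 in Suz12F2 neurospheres around Mycn, against 11 and 14 around Myc. The whole lists held 63177 and 67079 islands, and their number in stretches of this length was not computed. The counts therefore do not show an excess around Mycn.

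**Figure D4:**
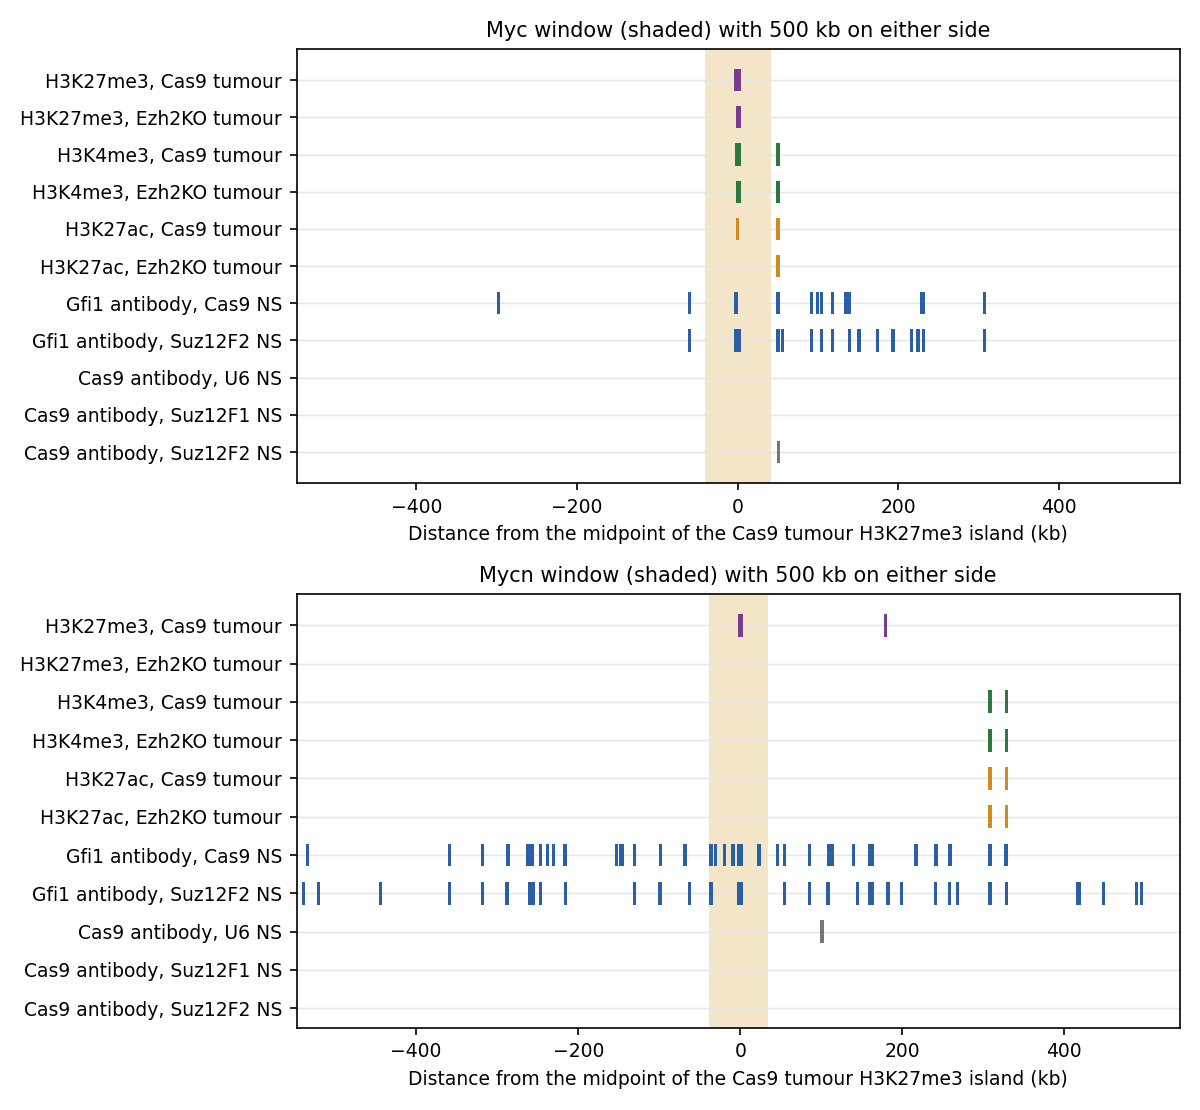
Regions in the Myc window (upper panel, shaded) and the Mycn window (lower panel, shaded) and 500 kb on either side, by distance in kb from the midpoint of the Cas9 tumour H3K27me3 island; each tick is 1 region, drawn at least 4 kb wide so that it can be seen. Tumour marks at Myc gather in the window and at the place just beyond it, while at Mycn the H3K4me3 and H3K27ac peaks stand over 275 kb beyond the window.

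The combination of lists at Myc was rarer than that at Mycn. The genome was cut into tiles of the window's length, with the window as one of them. Of 19857 tiles of 80 kb with a region in any list, 9 or 0.0453% (0.0239 to 0.0861) had the same lists present and absent as the Myc window. With tiles shifted by 50% of their length the share was 0.0151% (3 tiles), and over the 6 tumour lists alone it was 0.0976%. The shifted share lies outside the Wilson interval of the first. Such an interval is for counting error only and does not cover the placing of tiles. The pattern at Myc also depends on the window's edge. Knockout H3K27ac and a Cas9 antibody island of Suz12F2 cells, both absent from the window, were called 9.27 and 9.40 kb beyond it. The share was not computed for a wider window. Of 21843 tiles of 70 kb, 1754 or 8.03% (7.68 to 8.40) had those of the Mycn window, and over the 6 tumour lists alone the share was 18.0%. H3K27me3 of Cas9 cells was in 31.6% of the 80 kb tiles, with a median of 6000 bp where present, and 12.1% of tiles held as much as the 8.80 kb at Myc. For the knockout, 14.8% of these tiles held H3K27me3, with a median of 3.40 kb where present, so that the 1.60 kb at Myc was below it.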

How the data were processed

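The files were 11 lists of regions in build mm9, which the authors called library by library. Files of the 3 input libraries were not analysed here. SICER 1.1, BWA 0.5.9-r26, SAMtools, Picard and R 2.14.0 are named per the submitters' processing notes, with no role given. The names of 7 deposited lists give a window of 200 bp, a gap of 600 bp and a false discovery rate of 0.00001. For the H3K27ac and H3K4me3 lists, caller and threshold were not stated. The authors' score per region was used within its own list alone, since its meaning is not stated. Scores per kb were computed here.

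Positions are 1-based. To the ends of islands, which stand 1 base short of the 200 bp grid, 1 bp was added. Overlap meant at least 1 bp. Counts, covers and Wilson intervals were computed in Python 3.11.15 with numpy 2.4.6, and figures with matplotlib 3.10.9. Overlap counts were checked with bedtools 2.31.1 for 110 pairs of lists, of which 0 differed, and on simulated data, where 2000 of 2000 planted overlaps were found. The tumour lists number their regions, and no number was missing among the regions in the windows and their 500 kb flanks.

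The members and lists were chosen with earlier results of these data known. All regions in the windows are accounted for. Regions elsewhere are named where 5 or fewer shared a feature, after their values were seen. An annotation of mm9 was not used here, so other genes of the Myc network, the Ezh2 gene and cell type markers were not located.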

Additional observations from a re-analysis of the deposited data

How the results depend on the processing

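Alternatives gave 140 values for 40 results, of which 123 stayed within 1.5 times the reported count or cover, or within the interval of a tile share, and 17 did not. Many of these results were counts of 0, such as the active peaks at Mycn and the Cas9 antibody islands. Narrowing a window or keeping the upper 50% of scores cannot raise a window count of 0. The 123 is therefore not a measure of stability. Widening each window by 20 kb on each side moved values at Myc alone by over 1.5 times, since the place just beyond it entered: H3K4me3 peaks of the knockout came to 4, H3K27ac peaks to 2 (Cas9) and 1 (knockout), Cas9 antibody islands of Suz12F2 cells to 1, and Gfi1 cover to 9600 bp in Cas9 and 13200 bp in Suz12F2 neurospheres. Thus the H3K27ac call in Cas9 cells alone holds for the peak and not for a wider window. Narrowing by 20 kb cut Gfi1 cover at Mycn to 11800 bp and 6800 bp in these lists. In the upper 50% of scores, knockout H3K27me3 at Myc covered 800 bp, knockout H3K4me3 had 1 peak, and Gfi1 cover at Mycn in Cas9 neurospheres was 10400 bp. With 50% cover required for a shared call, the Cas9 H3K27me3 island at Myc counted as called in Cas9 cells alone. When a region within 1 kb counted as shared, neither the short H3K4me3 peak of Cas9 cells nor the second Suz12F2 Gfi1 island at Myc counted as called in 1 list alone. The share of tiles with the pattern of Myc was 0.0151% with tiles shifted and 0.0976% over the 6 tumour lists, and that of Mycn was 18.0% over those 6 lists. No paired analysis was possible because every group is 1 library. Depth limits every absence: a region not listed may lie under the caller's threshold.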
